A study of Anopheles gambiae with 60 samples.

Results

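The male accessory glands of *Anopheles gambiae* were compared with the male carcass on 8 Affymetrix arrays out of 60 in the atlas, 4 biological replicates of each tissue. The arrays were chosen by their labels alone. The accessory glands are paired secretory organs of the male reproductive tract. Their secretions form the seminal fluid and, in this mosquito, the gelatinous plug that is passed to the female with the sperm. The carcass is the body left after dissection, with flight and body-wall muscle, fat body, cuticle, nervous tissue and haemocytes.

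Both groups were adult males, given an age of 5 days in the labels. The study's methods state that the sexes were kept apart from pupation, so these males had not mated. They were dissected alongside blood-fed sisters at 24, 48 and 72 h after the females' meal, whereas the labels mention blooding for both sexes. Each replicate pooled tissue of at least 10 males at each of the 3 times, and 50 ng of total RNA was amplified per array. The carcass is defined as thorax and abdomen without the tissues dissected separately, and no strain was given in the sources used here.

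Intensities are given as log2 throughout. Of 22761 probe sets on the array, the 16884 with identifiers beginning with Ag were used. Detection in a tissue required log2 5 in at least 3 of its 4 arrays, and the 4809 probe sets detected in either tissue were tested with limma. Calls needed a difference in log2 intensity (accessory gland minus carcass, here the log2 fold change) of 1 or more in size and an adjusted p under 0.05. The authors normalized the 4 accessory gland arrays on their own and the male carcass arrays together with the female ones, which is a difference in processing that runs along the comparison. In bulk tissue, fewer cells of a type and less RNA per cell cannot be told apart.

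The 4 accessory gland arrays detected between 3783 and 4131 probe sets, against 4024 to 4342 in the 4 carcass arrays. The means were 3913 ± 152 in accessory glands and 4218 ± 136 in carcasses (SD, n = 4 each), and the groups overlapped (two-sided exact permutation test, p = 0.0571, where 0.0286 is the smallest this design allows). With the medians of shared probe sets set equal, the difference was -96.8 in place of -304.5 (p = 0.171, exact permutation test). The 50 probe sets with the highest intensity carried 29.6% ± 0.558 of the summed intensity in accessory glands and 25.6% ± 1.05 in carcasses (SD, n = 4 each). Every accessory gland array lay above every carcass array in this share (two-sided exact permutation test, p = 0.0286). Of the 50 probe sets with the highest mean in the accessory gland, 37 were called higher than in the carcass, 13 were not called, and 17 differed by a log2 fold change of 8 or more. Over all tested probe sets, 23.8% were called higher. Choosing the 50 by their level in the gland itself favoured calls in that direction, so the excess was largely set by the choice. Replicates correlated at Pearson's r of 0.974 to 0.987 within the accessory gland and 0.983 to 0.993 within the carcass.

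In all, 2875 probe sets were called (59.8% of those tested), of which 1146 were higher in the accessory gland (23.8% of those tested) and 1729 were lower (36.0%). These shares are the background for every count below. Separation of the arrays was more common than a call, since all 4 accessory gland arrays lay above all 4 carcass arrays for 31.6% of tested probe sets, and all 4 carcass arrays lay above for 41.4%. The balance of the directions depended on the scaling. Higher probe sets made up 39.9% of the calls as deposited and 51.4% after quantile normalization of the 8 arrays, which moved the median log2 fold change of the tested probe sets by 0.41, to 0.16 from -0.25. No call turned its direction between these scalings. The 2 directions also differed in size. The median log2 fold change was 1.86 among higher probe sets and -2.57 among lower ones, yet 22 higher probe sets and 0 lower ones reached a log2 size of 10. Probe sets for the coding sequence and the untranslated region of the same number were both tested in 211 cases, of which 165 had the same call and 3 had opposite calls.

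**Figure D1:**
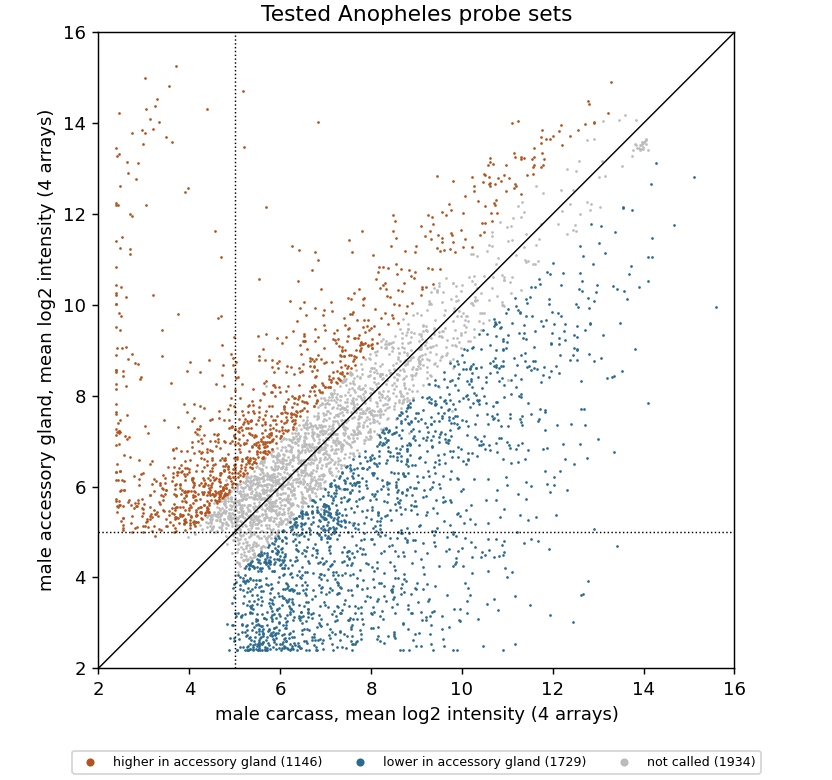
Mean log2 intensity of each tested probe set in the male accessory gland (vertical axis) against the male carcass (horizontal axis), 4 arrays each, coloured by call. Dotted lines mark log2 5 and the solid line equality. A column of higher probe sets stands at the left edge, near the lowest carcass values, with accessory gland means of up to 15.3.

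The most gland-enriched probe sets lay at the upper left of the plot of means. A log2 fold change of 8 or more was reached by 42 probe sets of 39 identifier numbers. Their accessory gland means ran from 10.4 to 15.3, and 31 of them were under log2 5 in all 4 carcass arrays. For such probe sets the fold is a lower bound, with each carcass array set to log2 5, and it ran from at least 43.3-fold to at least 1016-fold. Only 1 of the 42 could be paired with a gene, so most are known here by identifier alone. Pairing needed a published profile over at least 3 tissues, which leaves out genes seen in the gland alone.

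The largest difference was at Ag.3R.3653.0_at, with 14.90, 15.01, 15.12 and 14.92 in accessory glands and 4.91, 2.39, 2.39 and 2.39 in carcasses. Its log2 fold change was 11.97 ± 0.52 (SE, adjusted p = 2.63e-08), at least 1016-fold. Carcass replicate 1 was the highest of the carcass arrays, and the others sat at the floor of the scale. Ag.2L.885.0_CDS_at followed, with 14.19, 14.30, 14.37 and 14.00 in accessory glands and 2.52, 2.42, 2.42 and 2.42 in carcasses, at least 594-fold (adjusted p = 2.38e-11). In this case all 4 carcass arrays were at or near the floor.

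Most of these 42 probe sets were also seen in whole males and not in whole females. In the male whole body, 38 of them were detected, with array medians of 8.70 to 9.29, whereas in the female whole body 5 were detected, with medians of 2.72 to 2.94. In 30 of them none of the 6 other dissected tissues passed the detection limit, with the carcass of either sex not counted. The testis, the other dissected part of the male tract, detected 1. Head arrays of either sex had 0 of the 42 at log2 5 or above. In the midgut, 6 or 7 of them were at the limit in each male and each female array. Among the 15 largest differences, 1 probe set averaged 13.2 in the female midgut and 11.003 in the male midgut, beside 13.8 in the accessory gland, and it did not differ between male and female whole bodies (log2 fold change -0.28, adjusted p = 0.51).

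By the arm in their identifiers, 24 of the 42 (57.1%) lay on 3R, against 21.3% of all tested probe sets, and 0 lay on the X. The excess on 3R was not seen over all 1146 higher probe sets, of which 21.7% lay there. The X chromosome carried 8.03% of the higher probe sets, 5.78% of the lower ones and 6.88% of those tested. These are descriptions, and several probe sets may report the same gene or neighbouring copies.

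Traces of these transcripts appeared in particular replicates. In carcass replicate 1 the 42 probe sets had a median of 3.21 and 10 were at log2 5 or above, against medians of 2.43 to 2.45 and 0 to 2 probe sets in carcass replicates 2 to 4. Carcass replicate 1 was the highest of the 4 for 33 of the 42. In other tissues, male salivary gland replicate 1 (median 5.16, 23 probe sets at log2 5 or above) and male Malpighian tubule replicate 2 (3.78, 14 probe sets) were the highest of their groups. So were female salivary gland replicate 3 (3.94, 11 probe sets), female Malpighian tubule replicate 3 (3.03, 10 probe sets) and testis replicate 2 (3.51, 15 probe sets). The reverse held in the accessory gland. For the 166 probe sets lower by a log2 fold change of 5 or more, accessory gland replicate 1 had a median of 4.49, with 68 at log2 5 or above, against medians of 3.27 to 3.35 and 26 to 33 probe sets in the other 3 arrays. When replicate 1 of both groups was left out, all 42 and all 166 kept their call, and the median log2 fold changes became 10.66 and -6.21, against 10.18 and -5.91 with all arrays. The source of these traces was not tested.

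**Figure D2:**
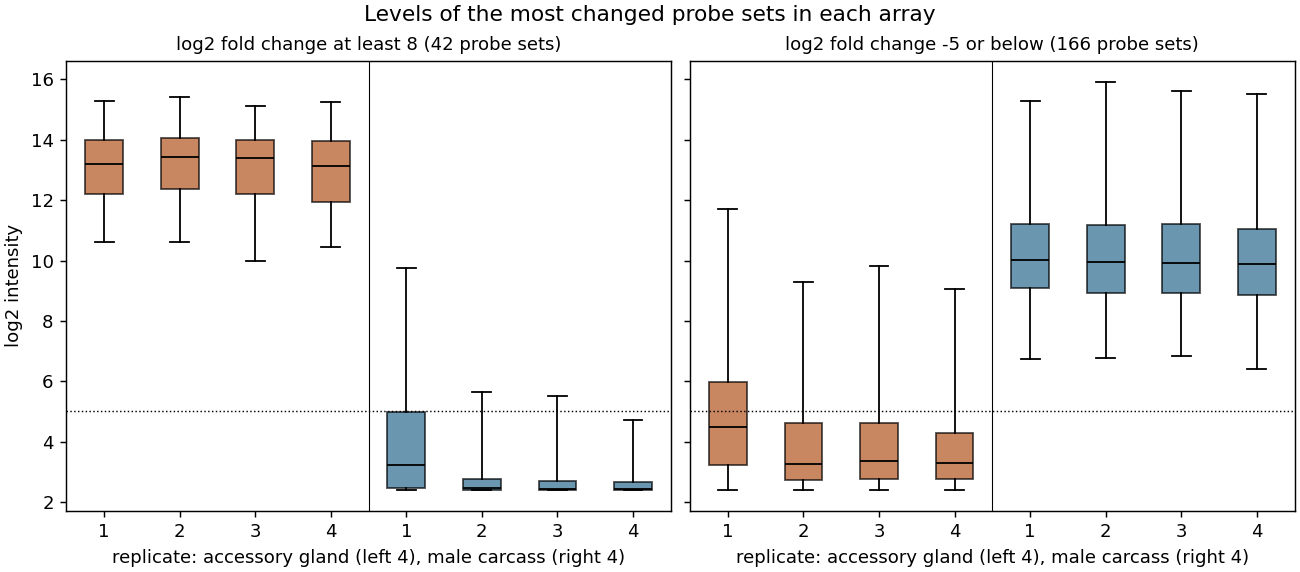
Log2 intensity in each array (horizontal axis, replicates 1 to 4 of the accessory gland on the left of each panel and of the male carcass on the right) of the 42 probe sets with a log2 fold change of 8 or more and of the 166 at -5 or below. Boxes give the quartiles and median, whiskers the whole range, and the dotted line log2 5. Replicate 1 of the dimmer tissue is the highest in both panels.

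No table of probe sets and genes was used, so genes were identified by matching published tissue profiles to the arrays. Of 795 tested genes paired in this way, 159 were higher (20%) and 311 lower (39.1%), beside 23.8% and 36.0% of all tested probe sets. A *Drosophila* orthologue was listed for 239 of them, 61 of which were higher and 64 lower. The genes named below with an orthologue are all numbered AGAP001903 or lower, from the X and part of 2R. The role groups hold 41 of the 239 and are no survey of them. They draw on a part of the genome, and a missing entry does not show that a gene lacks an orthologue. Fly names below are those of the 1:1 orthologue, and functions are those known in *Drosophila*. Plugin and the plug-forming transglutaminase, both established accessory gland products, could not be paired and were not analysed here, so the gland label was not checked against them.

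Among paired genes, the 15 largest increases ran from a log2 fold change of 3.58 to 9.77, and 9 of the 15 were under log2 5 in all 4 carcass arrays. AGAP002429 led with 12.05, 12.07, 12.53 and 12.12 in accessory glands and 2.43, 2.43, 2.43 and 2.41 in carcasses. It was at least 146-fold higher (log2 fold change 9.77 ± 0.15 SE, adjusted p = 4.32e-11), and no carcass array rose from the floor. Its mean was 4.88 in male whole bodies, 4.28 in female whole bodies and 5.37 in the female carcass, and it did not pass the detection limit in either whole body.

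AGAP007138 had 9.97, 9.97, 9.79 and 9.56 in accessory glands and 2.46 in each carcass array, at least 28.3-fold higher (adjusted p = 1.99e-10). The female salivary gland was also far above the female carcass for this gene (log2 fold change 8.94 ± 0.163 SE, adjusted p = 1.5e-10). AGAP006088 had 13.92, 14.04, 14.02 and 14.11 in accessory glands and 7.27, 6.38, 7.16 and 6.52 in carcasses, a log2 fold change of 7.19 ± 0.22 (SE, adjusted p = 2.57e-09). It was also higher in male than in female whole bodies (4.39, adjusted p = 2.88e-08), and it reached 8.79 in testis and 8.24 in male heads. The accessory gland values of both genes lay far above the carcass values, with little spread.

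AGAP009673 was at least 98.7-fold higher, AGAP002415 at least 65.9-fold and AGAP000181, the orthologue of FBgn0039882, at least 37.2-fold. AGAP000181 had 9.80, 10.13, 10.52 and 10.43 in accessory glands and 3.52, 3.52, 2.86 and 2.95 in carcasses, yet it averaged 7.98 in the female carcass and was lower in male than in female whole bodies (-1.95, adjusted p = 9.28e-06). The bound against the male carcass therefore did not extend to the carcass of the other sex. AGAP007093 had 7.01, 7.43, 7.15 and 6.59 in accessory glands, 2.60, 2.66, 2.69 and 2.60 in carcasses, and no other dissected tissue at the limit. It averaged 4.49 in male and 4.38 in female Malpighian tubules, under the limit but above the male carcass. Like every paired gene, it had a published profile over at least 3 tissues, so restriction to the gland was not shown. AGAP012317 (5.94, 6.04, 6.78 and 5.85 in accessory glands, 2.39 in each carcass array) had its other high value in the male midgut, at 7.93.

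Of the remaining paired genes with large increases, AGAP009818, AGAP009438, AGAP005581 and AGAP011777 were detected in all 6 other dissected tissues. Pairing needed a published profile over at least 3 tissues, so breadth among paired genes was partly set by that rule. AGAP009438 averaged 10.97 in accessory glands and 6.83 in carcasses (log2 fold change 4.14 ± 0.17 SE, adjusted p = 1.59e-08). AGAP009919 was at 10.9 in testis, above its accessory gland arrays of 9.26, 9.29, 8.19 and 8.22, and at 3.79, 3.65, 4.49 and 4.14 in carcasses. AGAP003539 was at least 17.4-fold higher, with 8.56, 9.10, 9.13 and 9.70 in accessory glands and 4.72, 4.95, 4.52 and 4.70 in carcasses. AGAP008762 rose by a log2 fold change of 3.85 ± 0.29 (SE, adjusted p = 1.05e-06). Absence of overlap between the groups was a condition for naming these genes.

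**Figure D3:**
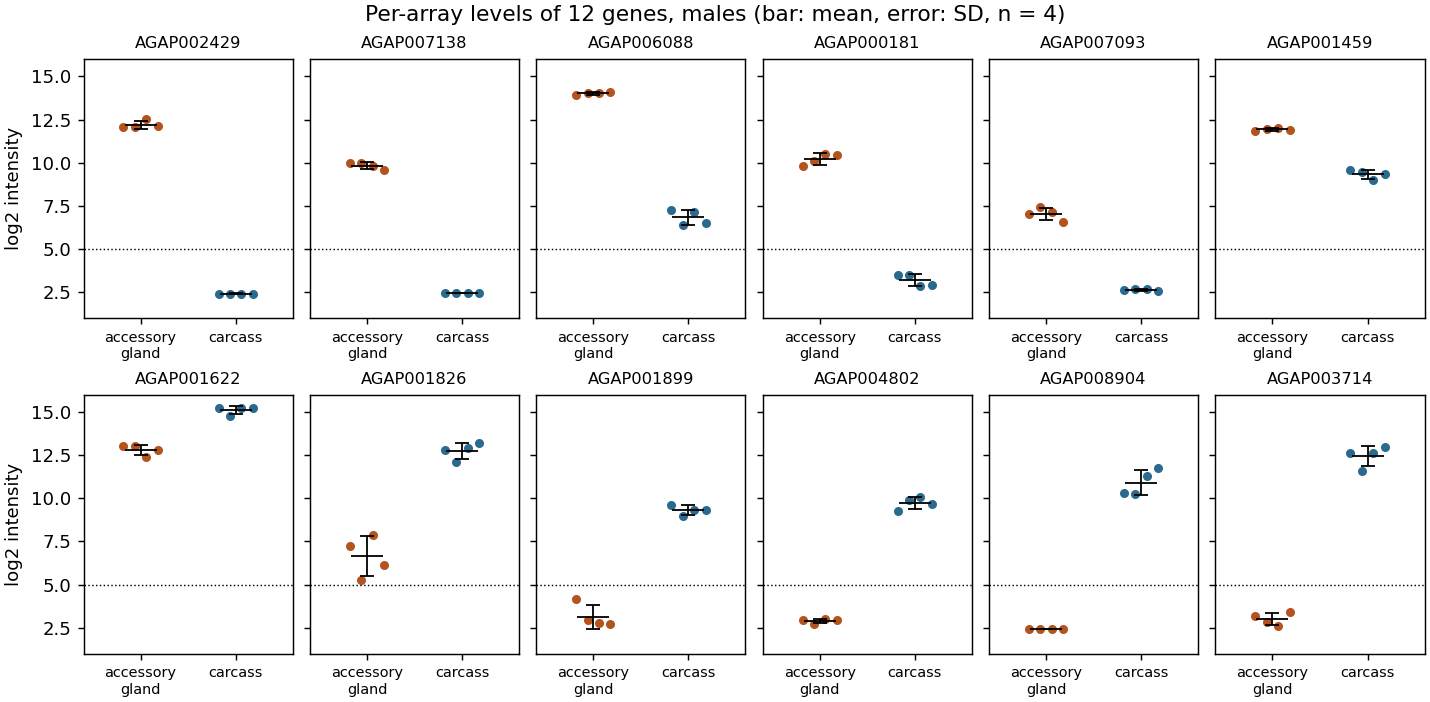
Log2 intensity of 12 genes in the 4 male accessory gland arrays (left in each panel) and the 4 male carcass arrays (right). Points are arrays, bars the mean and SD, and the dotted line log2 5. The upper row holds genes higher in the accessory gland and the lower row genes lower in it, and no panel has overlapping groups, which was a condition of choice for all but AGAP001622.

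Cytosolic ribosomal proteins build the ribosomes that translate nuclear transcripts, and 5 of the 6 with an identified orthologue were higher, with a median log2 fold change of 1.41 beside -0.25 over all tested probe sets. AGAP001459, the orthologue of RpL17, had 11.81, 11.98, 12.01 and 11.92 in accessory glands and 9.56, 9.47, 8.98 and 9.36 in carcasses (2.59 ± 0.16 SE, adjusted p = 3.35e-07). AGAP001274 (RpS15) had 13.81, 13.81, 13.83 and 13.95 in accessory glands and 12.10, 11.57, 11.65 and 11.74 in carcasses (2.09, adjusted p = 1.05e-06). The other 3 called were AGAP000952 (RpL37a, 1.51), AGAP001408 (RpL35, 1.31) and AGAP001805 (RpL13, 1.04). AGAP000654 (RpS30) had a log2 fold change of 0.87, under the threshold, with an adjusted p of 0.00459. All 6 kept their sign under quantile normalization. With the female carcass arrays added to the male ones, RpL37a, RpL35 and RpL13 were no longer called (0.67, 0.53 and 0.37). The call of RpL13 was also lost without accessory gland replicate 2 (0.97), accessory gland replicate 4 (0.87) or carcass replicate 3 (0.99).

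The early secretory pathway carries new proteins from the endoplasmic reticulum to the Golgi. Of the 6 genes grouped under it, which include a gene for the removal of misfolded proteins, 0 were called higher and 1 lower. AGAP001759 (Sec23, of the coat of vesicles leaving the endoplasmic reticulum) had 6.22, 6.05, 6.46 and 5.88 in accessory glands and 5.35, 4.33, 5.81 and 5.63 in carcasses, and AGAP001399 (betaCOP, of the coat of returning vesicles) had 6.13, 6.26, 6.06 and 6.09 in accessory glands and 5.60, 5.02, 5.34 and 5.41 in carcasses. For both, every accessory gland array lay above every carcass array, with log2 fold changes of 0.87 (adjusted p = 0.0244) and 0.79 (adjusted p = 0.00126). Both passed the threshold after quantile normalization, at 1.15 and 1.09. AGAP001069 (Surf4, a cargo receptor) was lower (-1.37, adjusted p = 0.000479), but not past the threshold after quantile normalization (-0.95). In the female salivary gland against the female carcass, Sec23 and betaCOP were at 2.70 and 2.12, and AGAP000615 (Hrd3, which acts in the removal of misfolded proteins) was at 3.85, against 0.29 in the accessory gland comparison. The difference between the 2 comparisons was not tested. None of the 4 proteasome genes were called (-0.67 to 0.56), and 3 of these, AGAP001440 (Rpn6), AGAP001745 (Rpn2) and AGAP000616 (Rpt5), had groups that did not overlap but differed by less than the fold threshold.

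**Figure D4:**
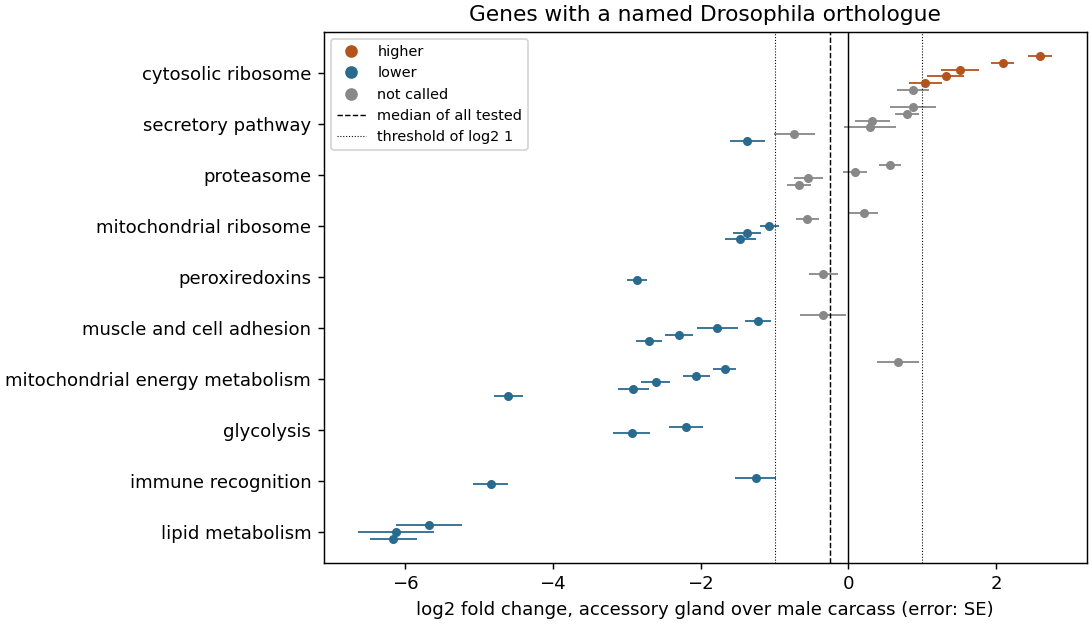
Log2 fold change, accessory gland over male carcass, of 41 genes with an identified *Drosophila* orthologue, grouped by the role of the fly gene (vertical axis). Points are genes with their SE, coloured by call. Dotted lines mark the threshold of log2 1 and the dashed line the median of all tested probe sets, -0.25. The cytosolic ribosome lies to the right and lipid metabolism farthest to the left.

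The 3 genes grouped under lipid metabolism were all called lower, with a median log2 fold change of -6.12. AGAP001826, the orthologue of apolpp, encodes the protein of lipophorin, the lipid carrier of the haemolymph that is made by fat body. It had 7.22, 5.27, 7.89 and 6.16 in accessory glands and 12.81, 12.10, 12.93 and 13.20 in carcasses (-6.12 ± 0.51 SE, adjusted p = 2.05e-06). The accessory gland replicates differed from each other by more than the carcass ones, and all were above the detection limit. AGAP001899 (FASN3, a fatty acid synthase) had 4.17, 2.94, 2.75 and 2.72 in accessory glands and 9.64, 8.95, 9.30 and 9.33 in carcasses, at least 19.8-fold lower in the gland. AGAP001076 (Cyp4g15, a cytochrome P450) had 8.44, 6.01, 6.96 and 6.32 in accessory glands and 12.68, 12.52, 12.67 and 12.54 in carcasses (-5.67, adjusted p = 1.4e-06). For FASN3 and Cyp4g15, accessory gland replicate 1 was the highest of its group, as for the probe sets described above.

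Of 6 genes of mitochondrial energy metabolism, 5 were called lower, with a median of -2.33. The widest difference was at AGAP001711 (ND-23, a subunit of respiratory complex I), with 5.55, 5.37, 5.65 and 5.80 in accessory glands and 10.35, 9.70, 10.29 and 10.44 in carcasses (-4.60 ± 0.20 SE, adjusted p = 2.49e-08). Another complex I subunit, AGAP001653 (ND-75), fell by 2.91, the ATP synthase subunit AGAP001138 (ATPsynB) by 2.61, the citric acid cycle enzyme AGAP001903 (Mdh2) by 2.06, all on the log2 scale. AGAP001312 (Scsalpha), of the same cycle, was at -1.67. AGAP000958 (aralar1, the mitochondrial aspartate-glutamate carrier) was not called, with a log2 fold change of 0.67 (adjusted p = 0.051), and passed the threshold as higher after quantile normalization, at 1.06. The glycolytic genes AGAP001420 (Pglym78) and AGAP001630 (Tpi) were both lower, by 2.93 and 2.20. Mitochondrial ribosomal proteins, in contrast to the cytosolic ones, had 0 of 5 higher and 3 lower, of which AGAP001139 (mRpL19, -1.46) and AGAP000759 (mRpL32, -1.07) were not past the threshold after quantile normalization. Of the 2 genes grouped as peroxiredoxins, AGAP001325 (Prx5) fell to 9.80 to 10.05 in accessory glands, against 12.75 to 12.81 in carcasses. The other, AGAP000396, was not called (log2 fold change -0.34) and changed sign after quantile normalization (0.082).

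Muscle and adhesion genes were lower in 4 of 5 cases, with a median of -1.78. AGAP001622 (Mlc2, a muscle myosin light chain) ranged between 12.41 and 13.05 in accessory glands and between 14.77 and 15.23 in carcasses (-2.30 ± 0.19 SE, adjusted p = 2.14e-06), so it remained bright in the gland. AGAP001497 (Actn, alpha-actinin of the muscle Z-disc) fell by 1.78, AGAP001381 (LanB1, a laminin chain of the basement membrane) by 2.70 and AGAP000815 (mys, an integrin beta subunit) by 1.22, the last not past the threshold after quantile normalization (-0.61). AGAP010147, the identifier on the muscle marker list, had 6.67, 7.59, 6.82 and 6.55 in accessory glands and 8.28, 6.78, 9.002 and 8.94 in carcasses. It was called lower (-1.34, adjusted p = 0.0237) with overlapping groups, and the call was lost when any of 6 of the 8 arrays was left out, with no detection limit and with an ordinary linear model. It was also lost after quantile normalization (-0.92, adjusted p = 0.073) and with the female carcass arrays added (-0.20, adjusted p = 0.692).

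The 2 genes grouped under immune recognition, both for peptidoglycan recognition, were lower. AGAP001212 (PGRP-LB, a peptidoglycan-cleaving amidase) had 3.84, 3.45, 3.27 and 3.38 in accessory glands and 8.62, 7.86, 8.80 and 8.03 in carcasses (-4.84, adjusted p = 6.72e-08). AGAP000536 (PGRP-SA, a secreted receptor) fell by 1.26 on the log2 scale, and was just short of the threshold after quantile normalization (-0.98).

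The 15 largest decreases among paired genes ran from -5.96 to -9.44, and 11 of the 15 were under log2 5 in all 4 accessory gland arrays. AGAP003714 had 3.21, 2.83, 2.63 and 3.39 in accessory glands and 12.65, 11.58, 12.64 and 12.95 in carcasses, at least 175-fold lower in the gland (adjusted p = 3.45e-09). AGAP008311 had 6.29, 3.15, 3.09 and 3.14 in accessory glands and 12.81, 12.87, 12.50 and 12.90 in carcasses (-8.86 ± 0.64 SE), with replicate 1 apart from the other accessory gland arrays. AGAP000327, the orthologue of FBgn0030558, was at least 47.1-fold lower and AGAP007249 at least 51.8-fold lower. AGAP004802 (at least 26.4-fold lower) had 2.94, 2.71, 3.01 and 2.94 in accessory glands and 9.24, 9.89, 10.08 and 9.69 in carcasses, and AGAP004046 and AGAP002738 were at least 19.6-fold and 12.5-fold lower. No array of the gland reached the limit for any of these 3.

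AGAP008904 had the largest sex difference between whole bodies among these 15 genes. It was at 2.41 in each accessory gland array and had 10.31, 10.28, 11.29 and 11.74 in male carcasses, at least 59.9-fold lower in the gland, while the female carcass averaged 3.09. Its difference between male and female whole bodies was 7.42 (adjusted p = 1.93e-08). Male heads averaged 6.76. Of the unpaired probe sets, Ag.2R.354.16_a_at (4.85, 3.26, 3.18 and 3.25 in accessory glands, 13.11, 12.06, 12.60 and 12.89 in carcasses) and Ag.2R.402.0_CDS_a_at (4.54, 3.28, 3.39 and 3.28 in accessory glands, 12.87, 12.81, 12.37 and 12.46 in carcasses) had the largest decreases, at least 203-fold and 198-fold lower.

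How far the gland profile could be seen in the whole insect was examined with the male and female whole-body arrays, which share none with the comparison above. Of 939 probe sets higher in the gland and tested in both, 114 (12.1%) were higher in male than in female whole bodies, against 31.6% of all probe sets tested in both. A further 414 (44.1%) were lower in male whole bodies, against a background of 22.0%. Among probe sets at log2 fold changes of 1 to 2 in the gland, 7.27% were higher and 43.3% lower in male whole bodies, at 2 to 4 the shares were 9.74% and 51.6%, and at 4 to 8 (29 probe sets) they were 27.6% and 37.9%. At 8 and above, 35 of the 38 tested (92.1%) were higher and 0 lower. The 38 were those detected in the male whole body, against 5 in the female whole body, and the other 4 of the 42 were not tested, so this share was largely set by the detection filter. The male whole body detected 68.1% of the higher probe sets, against 87.4% of all tested, and the female whole body 75.2%, against 81.1%. The ovary detected 70.9% of the higher probe sets and 51.4% of the lower ones, against 68.9% of all tested, so the share of the higher ones was near the background. Probe sets lower in the gland were male-biased in whole bodies for 59.1% and female-biased for 8.44%, against the same backgrounds of 31.6% and 22.0%. Of all 1729 lower probe sets, 915 passed the detection limit in the male carcass alone, which is part of the male whole body. The male whole body detected 93.8% of the lower probe sets and the female whole body 75.2%. These shares were therefore partly set by the filter.

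**Figure D5:**
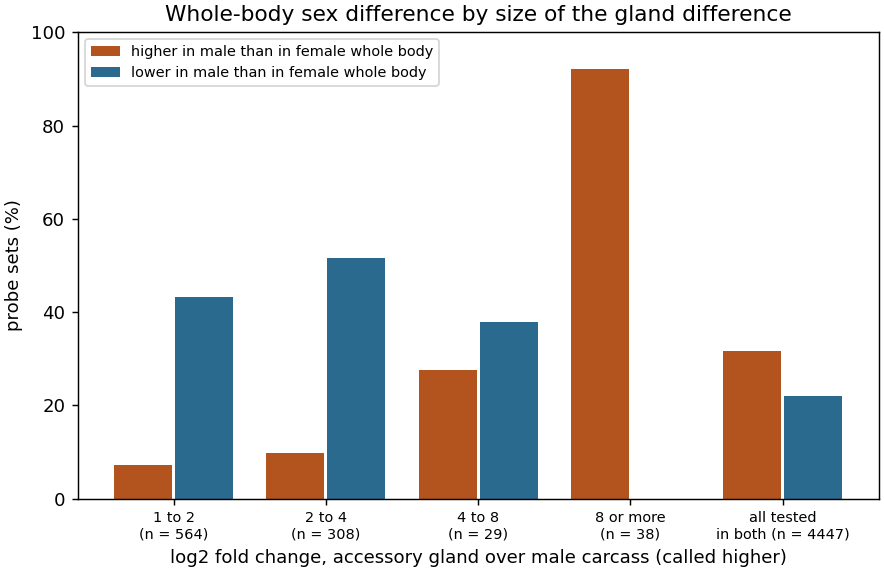
Percentage of probe sets called higher or lower in male than in female whole bodies, by the log2 fold change of the accessory gland over the male carcass, for probe sets called higher in the gland. The last pair of bars is all probe sets tested in both comparisons. At 8 or more, 92.1% of the 38 tested were higher in male whole bodies, a share largely set by the filter, since all 38 were detected in male and 5 in female whole bodies. At 1 to 2 and 2 to 4, lower probe sets were the more frequent.

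A second secretory organ, the salivary gland, was set against its own carcass in females, which again used other arrays, although the female and male carcass arrays had been normalized together. Of 795 probe sets higher in the accessory gland and tested in both, 221 (27.8%) were higher in the salivary gland than in the female carcass, against a background of 14.2%. Of 1526 lower in the accessory gland, 1052 (68.9%) were lower in the salivary gland, against 36.6%. The first share was 39.1% after quantile normalization, against 21.9% over all, and 12.5% with a threshold of log2 2 in both comparisons, against 4.08%. Both comparisons set an organ against a carcass, so probe sets bright in carcass could be lower in both whatever the organ. No other organ was set against a carcass here, and whether these shares are particular to secretory organs was not tested. Paired genes higher in both organs included AGAP007138, AGAP009673 (salivary gland log2 fold change 2.47) and AGAP009919 (4.79), while AGAP006088 was higher in the accessory gland and lower in the salivary gland (-1.56, adjusted p = 0.000367).

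Breadth differed with the size of the change. Of the 632 probe sets higher by a log2 fold change of 1 to 2, 53.6% were detected in all 6 other dissected tissues and 2.37% in none, and at 8 and above these shares were 0% and 71.4%. Among higher probe sets at 4 to 8, 7.89% were detected in all 6 and 42.1% in none. For lower probe sets the shares were 52.4% and 3.04% at 1 to 2, and 10.6% and 6.52% at 4 to 8. The share detected in all 6 thus fell with size in both directions. Over all tested probe sets, 47.7% were detected in all 6 and 5.39% in none.

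RNA of the testis, which lies next to the accessory glands, was looked for with 1088 probe sets. These were detected in testis and not in head, midgut, Malpighian tubules or salivary gland of either sex, nor in ovary. The female carcass was not used in this choice, so the set may include probe sets expressed in carcass. The accessory gland detected 34 of them (3.13%) and the carcass 35 (3.22%). Of the 65 that were tested, 28 were higher and 28 lower in the gland, where a probe set detected in a single group entered through the group in which it was high. By array, accessory gland replicate 1 had 58 at log2 5 or above, against 35 to 43 in the other accessory gland arrays and 36 to 49 in the carcass arrays.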

How the data were processed

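Intensities were deposited as linear values that the authors made with GCRMA (version not given in the sources used here), normalizing within each tissue. They were taken as log2 with no further scaling. The number of arrays limits the precision. Groups came from the labels, and nothing shows that replicates of different tissues came from different mosquitoes. Moderated linear models were fitted with limma (version 3.58.1, R 4.3.3), and Benjamini-Hochberg adjustment ran over the 4809 probe sets tested. On data simulated from the spreads of these arrays, with 4085 probe sets, 85% of changes of log2 1.5 and 98% of changes of 3 were recovered. Of 187 calls, 4 were false. The simulation changed 100 probe sets at each size, all upward and among brighter probe sets, with no difference in scaling. Its rates need not hold for the real comparison, where far more probe sets differ, in both directions. Per-array values were tested by exact permutation in Python 3.11.15 with scipy 1.17.1.

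Genes were paired with probe sets where relative abundance over at least 3 tissues, computed from the arrays, matched the profile in the study's supplementary tables within 0.0006 in every tissue. This paired 1173 of 1352 genes, and 3.05 on average when profiles were shuffled. Of paired genes on a named arm, 99.8% shared the arm of the gene with the nearest number. Of 25 lists drawn up by gene description, none could be filled, and 3 of 5 written identifiers could be paired. In their place, 41 of the 239 tested orthologues were grouped by role, and the rest were given none. Roles came from general knowledge of the fly genes and were assigned after the fits had been made. Named genes are those called without overlap: the 15 largest log2 fold changes each way, over all and among paired genes, beside orthologues with a role and marker identifiers. The members and lists were chosen with earlier results of these data known. Alternatives covered scaling, detection limits, fold threshold, variance model, replicate block, arrays in the fit, probe set types and each array left out.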

Additional observations from a re-analysis of the deposited data

Results flagged for a closer look

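Among 4 arrays of a tissue, a value was marked where its gap to the next, divided by the whole range, exceeded Dixon's critical ratio. Of 124 sets of 4 values examined, 13 were marked, and chance marks about 1 in 20. In the accessory gland, AGAP008311 (ratio 0.979, replicate 1 at 6.29, the others at 3.09 to 3.15) and AGAP008227 (0.873, replicate 1 at 8.12, the others at 5.18 to 5.55) had a high replicate 1. AGAP002429 (0.853, 12.53), AGAP001274 (0.876, 13.95), AGAP000949 (0.832, 7.57) and AGAP000615 (0.841, 8.07, the others at 6.39 to 6.65) each had another array high, and AGAP001630 (0.980, 6.36) had replicate 2 low. In the carcass, AGAP001630 (0.875, 9.48) and AGAP000615 (0.888, 7.07) had a high replicate 1 and AGAP001069 a high replicate 2 (0.903, 8.51). Low carcass values were marked for AGAP001622 (0.961, 14.77), AGAP001408 (0.849, 9.29) and AGAP001325 (0.900, 12.75).

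Outside the Ag probe sets, 14 mosquito-array probe sets with other identifiers, neither *Plasmodium* nor control, were tested when all were included, of which 3 were called higher in the accessory gland and 6 lower. They carry no gene name here.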

How the results depend on the processing

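No probe set turned its direction among the calls of any setting. Requiring a log2 fold change of at least 2 left 514 higher and 1136 lower, 1650 in all. Quantile normalization gave 1515 higher and 1433 lower, and setting the medians of shared probe sets equal gave 1319 and 1568, 45.7% higher. Leaving out each array gave 1116 to 1188 higher, 1712 to 1828 lower and 2870 to 2973 in all, and leaving out replicate 1 of both groups, chosen after seeing the data, gave 1187 and 1844. The difference in detected probe sets was -295 with a limit of log2 6 (exact permutation p = 0.0286), -96.8 with the medians of shared probe sets set equal (exact permutation p = 0.171), and -377 to -261 with each array left out. The difference in the share of the 50 brightest was 3.60 to 4.42 percentage points with each array left out, where 4 against 3 arrays cannot reach a p under 0.0571. The salivary gland share moved to 39.1% after quantile normalization and 12.5% with a threshold of log2 2 in both comparisons.

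Same-numbered replicates were not paired, since their deviations correlated at 0.01 to 0.10 and those of other numbers at -0.12 to 0.12. With the replicate block, 1149 were higher and 1733 lower. Over 2303 values of named genes under alternatives, 36 lost a call, 11 gained one and 3 changed sign, all 3 uncalled. These were AGAP000396 (0.082 after quantile normalization), AGAP000032 (0.15 with both carcasses) and AGAP000615 (-0.085 to 0.47 with each array left out, negative without accessory gland replicate 3). The cause was not tested.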
